A study of Mus musculus with 8 samples.

Results

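Classical monocytes were taken from a single-cell RNA data set of erythroblastic islands, the clusters of a central macrophage and maturing red cells in which erythrocytes are made. A cell was counted as a classical monocyte when it held at least 3 UMIs of Ly6c2, at least 2 of Ccr2 and at least 1 of Csf1r, none of Ace or Siglech, at most 5 of Elane and at most 1 summed over C1qa, C1qb and C1qc. A UMI (unique molecular identifier) marks 1 captured RNA molecule. This rule found 804 of 24942 cells, a share of 3.22% (exact Clopper-Pearson 95% interval 3.01% to 3.45%). Since the rule uses the measured counts, everything said of these cells below is a description, with no test.

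Classical monocytes are short-lived mononuclear phagocytes that are born in the bone marrow from Csf1r-expressing precursors. The chemokine receptor Ccr2 lets them leave the marrow and enter inflamed tissue, where they can become macrophages or dendritic cells. In the blood some of them lose Ly6C and become non-classical monocytes that patrol the vessel wall under the control of Nr4a1. Monocytes detect microbial and self RNA through endosomal Toll-like receptors, and the strain studied here carries a duplicated X-linked segment that includes Tlr7.

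The series holds 8 libraries made on the 10x Genomics v3.1 platform from male Sle1.Yaa mice, a lupus-prone strain. There were 2 bone marrow and 2 spleen libraries with a human TLR8 transgene, labelled Anemic, set against 3 bone marrow and 1 spleen control libraries labelled Non-Anemic. All of them carry the Sle1 locus and Yaa, and the island cells were released from gradient-purified islands with EDTA and light mechanical force. The labels do not say which promoter or cell types drive the transgene, how old the mice were or whether each library is a separate animal. The cell barcodes in the table run in 8 alphabetically sorted stretches, which were read as 8 unnamed libraries. No column names a library, so no stretch was given a tissue or a genotype, transgenic and control mice were not compared, and the pooled cells stand for 1 sample. Tlr8 below is the mouse gene.

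The table held 248384567 UMIs, between 6195876 and 48442321 a stretch. Monocytes were unevenly spread over the stretches. Stretches 1, 2, 3, 4 and 6 gave 159, 101, 162, 166 and 193 monocytes, which was 7.28%, 4.13%, 3.86%, 3.92% and 2.84% of their cells. Stretches 5, 7 and 8 gave 14, 7 and 2 monocytes, or 0.483%, 0.402% and 0.447%, and are left out wherever values are given by stretch. Among cells with less than 20% globin UMIs the share ran from 0.505% to 7.99%, so the spread remained. Monocytes were deeply sequenced, with a median of 14236.5 UMIs (1935 to 33414) and 3413.5 genes, against 7554 UMIs over all cells. Stretch 6 stands apart with a median of 5352 UMIs in its monocytes. A total of 1031 cells carried a barcode seen in more than 1 stretch, and 2 of them were monocytes.

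**Figure D1:**
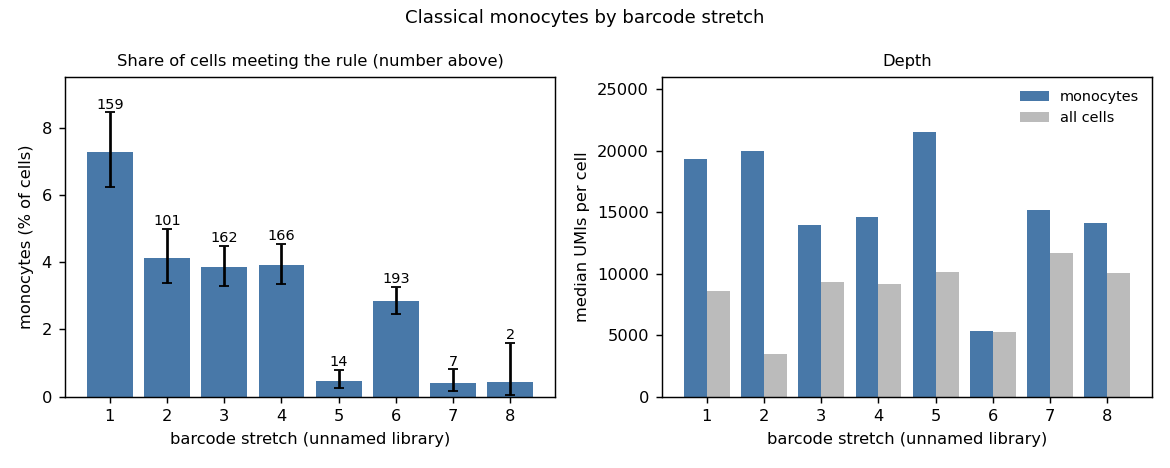
Share of cells that met the monocyte rule in each barcode stretch (left, percent of cells, bars with exact 95% binomial intervals and the number of monocytes above) and median UMIs per cell of monocytes and of all cells (right). Stretches 1, 2, 3, 4 and 6 lie between 2.84% and 7.28%, the other 3 between 0.402% and 0.483%, and stretch 6 has shallow monocytes (median 5352 UMIs).

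The label was checked against its 4 markers, of which Plac8 alone is outside the rule. Plac8, a small cysteine-rich protein of myeloid cells, was found in 98.6% of the monocytes. At 2000 UMIs a cell, Plac8 was found in 93.0% of monocytes, against 3.65% of erythroid cells with 60% or more globin UMIs. Those erythroid cells, pooled over all stretches, served as a rough guide to the free RNA a droplet can pick up. Globin made up 79.2% of their UMIs, which leaves fewer of the 2000 UMIs for other RNA. Of 18 further monocyte identity genes, all 18 were detected in the pooled monocytes. So were all 18 neutrophil granule and all 6 B cell list genes, so such detection says nothing of the label. The monocyte identity genes summed to between 23854 and 33456 CPM in the 5 stretches (CPM, the UMIs of a gene scaled to a fixed total per class or stretch). Plac8 stood at 2331 CPM in the monocytes and at 2688 CPM in granulocytic precursors rich in Elane, so it marks both.

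Cells lay near each limit of the rule, most of them at the Csf1r limit. There were 18 cells at exactly 3 Ly6c2 UMIs and 27 that failed with 2. There were 45 cells at 2 Ccr2 UMIs and 41 that failed with 1, while 141 cells sat at 1 Csf1r UMI and another 141 failed with 0. Plac8 was at 2049 CPM in the cells just inside the Csf1r limit, against 1497 CPM just outside it. Of 991 cells above all 3 minima, 36 failed on Ace, 23 on Siglech, 90 on Elane and 42 on C1q, and a cell can fail on more than 1. Members held 3 to 142 Ly6c2 UMIs (median 30), 2 to 54 Ccr2 UMIs (median 13.5) and 1 to 18 Csf1r UMIs (median 3).

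Ly6c2 and its neighbour Ly6c1 encode the Ly6C surface proteins that define classical monocytes in flow cytometry. In GRCm38 with the GENCODE M21 annotation, Ly6c2 lies at chr15:75108158-75111970 and Ly6c1 at chr15:75044018-75048830, both on the minus strand. Their annotated transcripts share 802 of 822 aligned bases (97.6%), so a read can fit both genes and their counts could be split between them. The table gave 28520 UMIs to Ly6c2 and 4 to Ly6c1 in the 804 monocytes. The start windows are less alike, with 81.7% of aligned bases identical. They are printed here with those of Ccr2, Chil3 and F13a1, the genes on which the rule and the results turn, from 250 bases before to 50 bases after the RefSeq start (RefSeq on GRCm38.p6). Capitals mark matches to GAGGAAGT, a PU.1-type motif, on either strand.
Ly6c2 (chr15:75111922-75112221, minus strand): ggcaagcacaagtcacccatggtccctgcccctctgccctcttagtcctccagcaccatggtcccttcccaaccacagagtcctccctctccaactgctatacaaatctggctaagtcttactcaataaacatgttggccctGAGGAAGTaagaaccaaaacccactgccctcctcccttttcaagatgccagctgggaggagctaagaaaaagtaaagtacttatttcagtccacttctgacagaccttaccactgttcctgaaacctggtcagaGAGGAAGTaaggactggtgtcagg
Ly6c1 (chr15:75048788-75049087, minus strand): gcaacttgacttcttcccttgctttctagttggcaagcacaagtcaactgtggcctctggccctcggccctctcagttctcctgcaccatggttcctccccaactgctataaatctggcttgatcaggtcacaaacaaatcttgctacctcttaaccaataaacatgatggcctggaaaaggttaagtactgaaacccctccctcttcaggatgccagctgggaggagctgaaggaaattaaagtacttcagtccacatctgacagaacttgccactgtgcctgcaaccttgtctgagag
Ccr2 (chr9:124101933-124102232, plus strand): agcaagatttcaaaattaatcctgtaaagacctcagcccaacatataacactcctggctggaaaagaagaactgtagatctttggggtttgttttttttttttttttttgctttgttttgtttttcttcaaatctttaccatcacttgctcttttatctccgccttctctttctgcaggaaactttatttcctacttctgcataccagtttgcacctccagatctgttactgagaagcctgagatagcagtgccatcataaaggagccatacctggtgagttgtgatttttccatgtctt
Chil3 (chr3:106167515-106167814, minus strand): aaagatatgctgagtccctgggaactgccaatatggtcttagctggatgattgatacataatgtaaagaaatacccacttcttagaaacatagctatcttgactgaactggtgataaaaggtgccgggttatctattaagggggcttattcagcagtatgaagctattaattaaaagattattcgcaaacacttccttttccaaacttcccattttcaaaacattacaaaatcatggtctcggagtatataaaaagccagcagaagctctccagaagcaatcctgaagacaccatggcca
F13a1 (chr13:37050195-37050494, minus strand): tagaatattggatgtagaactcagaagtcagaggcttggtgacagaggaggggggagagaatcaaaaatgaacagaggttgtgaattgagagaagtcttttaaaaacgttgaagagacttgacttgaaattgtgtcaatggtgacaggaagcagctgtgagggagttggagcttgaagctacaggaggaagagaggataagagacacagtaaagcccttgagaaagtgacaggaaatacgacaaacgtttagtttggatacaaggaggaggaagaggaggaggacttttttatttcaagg

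The Ly6c2 window held 2 copies of GAGGAAGT and the other printed windows 0. A second start window of Ly6c1 and one of F13a1 each held 1. Over all 32851 start windows of the same length, 1052 (3.2%) held the motif or its reverse complement ACTTCCTC. The C/EBP-type motif TTGCNNAA, whose reverse complement is TTNNGCAA, was in 3547 windows (10.8%) and in none of those printed. These matches describe letters in the windows and say nothing of binding. Csf1r, the receptor of the monocyte growth factors CSF1 and IL-34, is on chromosome 18 and its window is not shown.

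The 3 genes of the rule varied modestly between stretches. Ly6c2 was at 1766, 2042, 2877.5, 2925 and 2646 CPM in stretches 1, 2, 3, 4 and 6, and 2416 CPM over all monocytes. Ccr2 was at 1165, 955, 899.5, 1062 and 731 CPM, and Csf1r at 301, 249, 241, 232 and 374 CPM in the same stretches. Ly6c2 was thus lowest in stretches 1 and 2 and Csf1r highest in stretch 6, with no stretch apart from the rest.

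Genes outside the rule included secreted and matrix proteins. Chil3, a chitinase-like lectin of murine monocytes and macrophages, was at 1004, 1805, 1587, 2291 and 747 CPM in stretches 1, 2, 3, 4 and 6. Fn1, which encodes fibronectin, was at 1013, 901, 1634, 1673 and 1161 CPM in those stretches. F13a1, the A chain of coagulation factor XIII that crosslinks fibrin, was at 643, 551, 996, 1116 and 798 CPM. F13a1 and Fn1 were lower in stretches 1 and 2 than in the other 3, while Chil3 was lowest in stretches 1 and 6. Vcan, the matrix proteoglycan versican, was at 246, 275, 120.0, 207 and 114 CPM, and Hp, which encodes the haemoglobin-binding haptoglobin, was at 2094, 2301, 777, 915 and 983 CPM. Hp was higher in stretches 1 and 2 than in the others. Lyz2, which encodes lysozyme, stood at 16526 CPM, and Ms4a6c, a membrane protein of the MS4A family, stood at 1047 CPM and was found in 99.3% of the cells.

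Markers of other cells were low for the most part. Globin made up 0.160% of the UMIs of monocytes, against 19.8% of those of all other cells, and the 8 erythroid markers summed to between 481 and 4181 CPM over the 5 stretches, highest in stretch 6. The 6 macrophage markers summed to 47.2 to 98.8 CPM, nearly all of it the haem-degrading enzyme Hmox1, while Vcam1 and Cd5l of island macrophages were at 1.19 and 0.932 CPM and Timd4 was at 0. The B cell list summed to 14.2 to 69.2 CPM and the T and NK cell list to 0 to 3.04 CPM, with Ncr1 at 0. The plasma cell list summed to 113 to 169 CPM and the plasmacytoid dendritic cell list to 191 to 314 CPM, mostly through Xbp1 at 113 CPM, Bst2 at 178 CPM and Tcf4 at 69.6 CPM, with Klk1 at 0. Basophil and platelet lists reached 221 and 471 CPM in stretch 6 and at most 4.88 and 40.9 CPM in the other 4. In 273 monocytes (34.0%) at least 2 UMIs of other-lineage markers were found, and leaving those cells out kept 531 monocytes.

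Mature neutrophil markers summed to 1810 to 3619 CPM in the monocytes, led by S100a8 and S100a9, the calprotectin subunits. At 2000 UMIs a cell S100a8 was found in 68.3% of monocytes, against 42.9% of erythroid cells, and S100a9 in 63.8%, against 46.0%. Camp, a granule antimicrobial peptide, was in 25.4% of monocytes, against 19.4% of erythroid cells. Ly6g and Cxcr2, defining markers of neutrophils, were at 2.46 and 2.03 CPM in the monocytes. In 19 monocytes (2.36%) more than 1% of all UMIs came from S100a8 and S100a9.

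The monocytes were set beside 3 other myeloid classes picked by their own counts. Ace-positive monocytes, the non-classical side, numbered 57 cells with a median of 5746 UMIs (at least 2 Ace UMIs and 1 of Csf1r, at most 1 of Ccr2). Elane-high precursors, granulocytic cells rich in primary granule genes, numbered 1355 cells with a median of 23754 UMIs (at least 6 Elane and 5 Mpo UMIs). Conventional dendritic cells numbered 107 with a median of 14988 UMIs (Flt3 with at least 5 H2-Aa and 20 Cd74 UMIs). UMIs were summed per class, and a ratio is the log2 of the monocyte CPM plus 10 over the other class's CPM plus 10, centred on the median gene of those with at least 20 CPM in either class. A gene was called when it differed at least 2-fold and had the same sign within every stretch that held 20 or more cells of both classes, which was 5 stretches for the Elane-high precursors and 1 stretch for each of the others. Adding 10 CPM makes the ratios of low genes too small. The 3 comparisons share the monocytes, and the classes were chosen by marker genes, so their marker lists had to part.

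**Figure D2:**
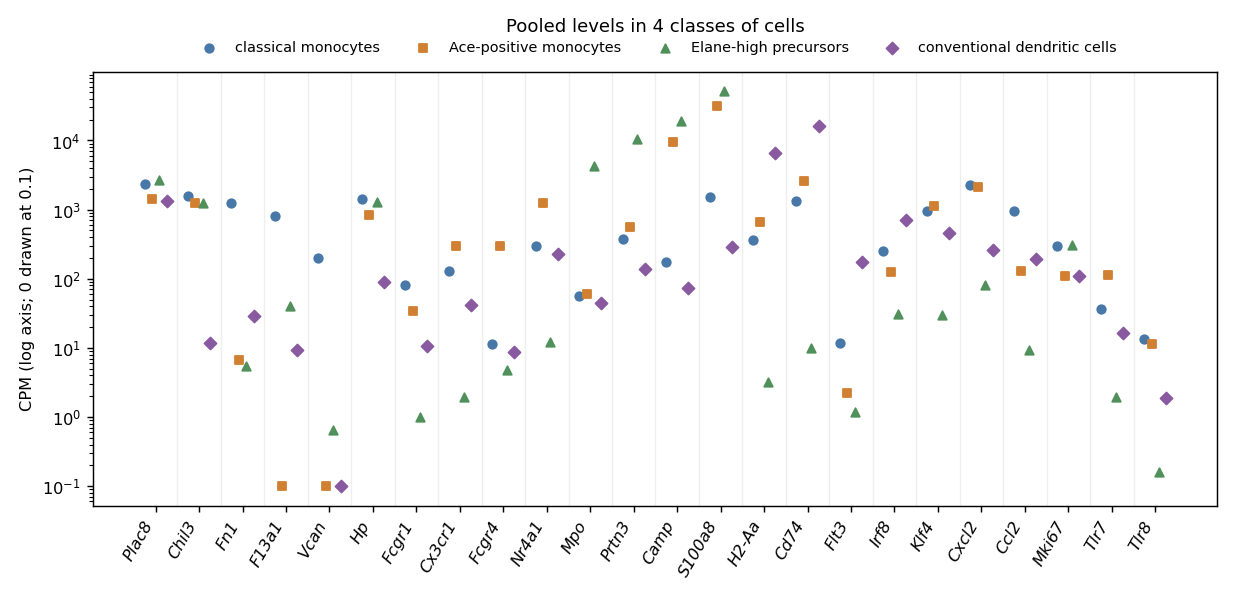
Pooled level (CPM, log axis, 0 drawn at 0.1) of 24 named genes in classical monocytes, Ace-positive monocytes, Elane-high precursors and conventional dendritic cells, 1 point a class. Fn1, F13a1 and Vcan are highest in classical monocytes, Mpo and Prtn3 in Elane-high precursors, and H2-Aa and Cd74 in dendritic cells. Mpo, H2-Aa and Cd74 were used to pick those classes.

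Against Ace-positive monocytes, the classical monocytes were higher in F13a1, Vcan and Fn1 and in most of the cell cycle list, and lower in the list of non-classical monocyte genes. Of 5966 genes measured, 15.1% were called, 410 (6.87%) higher and 489 (8.2%) lower in classical monocytes. F13a1 stood at 819 CPM in classical monocytes (95% Poisson interval 803 to 835) and had 0 UMIs in Ace-positive monocytes, so it was at least 121-fold higher by the 3-UMI limit. Vcan stood at 198 CPM, also against 0 UMIs, which is at least 29.3-fold higher. Fn1 was at 1265 CPM in classical and 6.76 CPM in Ace-positive monocytes (log2 ratio 6.18). All Poisson intervals and limits here cover counting error only.

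The monocyte identity list had 10 of 18 measured genes higher, 0 lower and a median log2 ratio of 1.17. S100a10, a partner of annexin A2, was at 1237 CPM in classical and 54.1 CPM in Ace-positive monocytes (4.21), and Lgals1, which encodes galectin-1, at 1366 and 96.9 CPM (3.62), both outside that list. Fcgr1 was at 80.7 CPM in classical and 33.8 CPM in Ace-positive monocytes and just missed the 2-fold limit (0.98). Plac8 was shared, at 2331 and 1402 CPM (0.66), as was Cd14, at 188 and 194 CPM.

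All 16 measured genes of the non-classical list were lower in classical monocytes, with a median of -3.53. Nr4a1, the orphan nuclear receptor on which non-classical monocytes depend, was at 294 CPM in classical and 1262 CPM in Ace-positive monocytes (-2.13). The transcription factor gene Pou2f2 was at 106 and 602 CPM (-2.47), Fcgr4, an activating IgG receptor, at 11.3 and 302 CPM (-3.94), and Itgal, the LFA-1 alpha chain, at 108 and 730.4 CPM (-2.72). Cd300e had 4 UMIs in all classical monocytes, 0.339 CPM, against 174 CPM in Ace-positive monocytes. Cx3cr1, the fractalkine receptor, was lower but not absent, at 128 and 295 CPM.

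Part of the granule signal in that comparison came from 5 of the 57 Ace-positive cells. Of the neutrophil granule list, 13 of 17 measured genes were called lower in classical monocytes (median -2.38), with S100a8 at 1529 CPM in classical and 31785 CPM in Ace-positive monocytes. Those 5 cells held 98.1% of the S100a8 and 98.2% of the Camp UMIs of the Ace-positive class. Without cells whose S100a8 and S100a9 passed 1% of UMIs, 2 genes of 12 were higher and 2 lower (median -0.17), and S100a8 stood at 886 CPM in classical and 833 CPM in Ace-positive monocytes (log2 ratio 0.12). Eno3, Ear2 and Fabp4, which are no granule genes of that list, stayed at -4.95, -4.63 and -4.64. The non-classical list also stayed at 16 lower of 16.

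Cell cycle genes were called higher in 13 of 18 and lower in 0, with a median of 1.27, and in 17 of 18 (median 2.43) without the cells that held neutrophil RNA. Stmn1, which destabilises microtubules, was at 430.3 CPM in classical and 92.4 CPM in Ace-positive monocytes (2.03), and Pclaf, which binds the replication clamp PCNA, at 218 and 33.8 CPM (2.31). The median depth was 14236.5 UMIs in classical and 5746 UMIs in Ace-positive monocytes. At 2000 UMIs a cell, the median summed cell cycle UMIs were 3 in classical and 1 in Ace-positive monocytes.

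Adhesion and inflammatory genes went both ways. Of 15 chemokine receptor and adhesion genes measured, 3 were higher and 9 lower (median -1.21), the lower ones including Pecam1 at 7.88 CPM in classical and 113 CPM in Ace-positive monocytes. Ccl2, the ligand of Ccr2, was at 954 and 131 CPM (2.71), and the cytokine gene Osm at 184 and 36.1 CPM. Il1b was at 187 CPM in classical and 915 CPM in Ace-positive monocytes (-2.30) and Il10 at 4.58 and 76.7 CPM (-2.64). Of the cytokine list 4 genes of 18 were therefore higher and 4 lower. Saa3, an acute-phase serum amyloid, was called higher at 729.7 and 18.0 CPM, but its log2 ratio was 0.29 within the 1 stretch that held 20 cells of both classes. The island macrophage and iron list had 7 of 11 measured genes lower, among them the scavenger receptor Cd36, with 4 UMIs in all classical monocytes (0.339 CPM), against 122 CPM in Ace-positive monocytes. The ratio of Hmox1 against Ace-positive monocytes, -1.06 at 66.6 and 142 CPM, was 0.088 without stretch 8. Of 7 class II presentation genes 2 were higher and 1 lower (median -0.76), and without the cells that held neutrophil RNA 2 were higher and 4 lower (median -1.07). The ratio of Cd74 against Ace-positive monocytes, -1.03 at 1337 and 2608 CPM, was -0.93 to -0.66 without stretch 3, 4 or 6, short of the 2-fold limit.

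Against Elane-high precursors, the classical monocytes were low in primary granule genes and high in MHC class II, chemokine, interferon-response and lysosomal genes. Of 5773 genes measured, 22.1% were called, and 816 (14.1%) were higher and 462 (8%) lower. The median gene had shifted by 0.24 on the log2 scale before centring, and without centring 1037 were higher and 303 lower. More than 1% of UMIs came from S100a8 and S100a9 in 77.2% of the Elane-high cells, and Camp stood at 19069 CPM in the class.

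Of 13 measured primary granule and progenitor genes, 12 were lower and 0 higher (median -4.39). Mpo, the myeloperoxidase of azurophil granules, was at 56.1 CPM in classical monocytes and 4325 CPM in Elane-high precursors (-6.27). Mpo is part of the rule for those precursors, so its difference was fixed, and the list count was not recomputed without it. The serine protease genes Prtn3 and Ctsg were at 371 and 60.6 CPM in monocytes, against 10638 and 2859 CPM in Elane-high precursors. At 2000 UMIs a cell, Prtn3 was still found in 37.8% of monocytes, against 4.75% of erythroid cells, whose UMIs were mostly globin. Mpo was found in 8.23% and 4.35%. Of 14 neutrophil granule genes, 10 were lower and 2 higher (median -2.89), and Mmp8, which encodes neutrophil collagenase, was 1 of the 2 at 123 CPM in monocytes and 7.87 CPM in Elane-high precursors. The granulocytic regulators Gfi1 and Cebpe were at 0.424 and 12.7 CPM in monocytes, against 35.0 and 393 CPM.

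Monocyte identity genes were higher in 14 of 18, with a median of 2.50, and lower in 0. S100a4, a calcium-binding protein, was at 2049.8 CPM in monocytes and 16.2 CPM in Elane-high precursors (6.06), Ms4a6c at 1047 and 37.8 CPM (4.23) and Lyz2 at 16526 and 1295 CPM. Chil3 and Hp did not part the classes, at 1554 and 1443 CPM in monocytes against 1250.5 and 1297 CPM. Ly6c2 itself was at 2416 CPM in monocytes and 1682 CPM in Elane-high precursors (0.28). The rule itself fixed the gaps in Ccr2, at 997 and 13.996 CPM, in Csf1r, at 270.1 and 7.13 CPM, and in Elane, at 46.0 and 9684 CPM.

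Of 17 measured myeloid transcription factor genes, 10 were higher and 1 lower in monocytes (median 1.53). Klf4, a zinc-finger factor needed for monocyte development, was at 696, 659, 1304, 1402 and 663 CPM in stretches 1, 2, 3, 4 and 6, and at 963 CPM in all monocytes against 29.5 CPM in Elane-high precursors (4.38). Irf8, which favours the monocytic over the granulocytic fate, was at 144, 158, 371, 307 and 327 CPM, and at 250.3 CPM in all, against 30.8 CPM. Both were lower in stretches 1 and 2 than in stretches 3 and 4.

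Of 11 listed MHC class II genes, 7 were measured and all 7 were higher (median 4.11). Cd74, the invariant chain, was at 1337 CPM in monocytes and 9.87 CPM in Elane-high precursors (5.85). All 11 summed to 3623 CPM in monocytes and 84.7 CPM in Elane-high precursors. A gene low in the precursors was measured only when its monocyte level passed the limit, so the filter partly set the count of 7 of 7. The MHC class I list was higher in 2 of 11 and lower in 0 (0.57). Cytokine and chemokine genes were higher in 12 of 14 and lower in 0 (2.53), with Ccl2 at 954 and 9.35 CPM and Cxcl2, a neutrophil-recruiting chemokine, at 2249 and 81.8 CPM. Interferon-response genes were higher in 18 of 25 (median 1.62), led by Ifi27l2a at 1192 and 10.4 CPM and Ifitm3 at 3243 and 166 CPM.

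Lysosomal genes were higher in 13 of 16 (median 1.66), among them the protease gene Ctsc at 809 and 22.8 CPM and the saposin precursor gene Psap at 2339.5 and 109 CPM. Immediate early genes were higher in 14 of 17 (median 1.74), with Atf3 at 1013 and 29.6 CPM. Cell cycle genes were higher in 0 and lower in 6 of 18 (median -0.76), with Rrm2, a subunit of ribonucleotide reductase, at 61.9 and 244 CPM (-2.06), while Mki67 was level at 297 and 309 CPM. Vcam1, the adhesion molecule of island macrophages, was at 1.19 CPM in monocytes and 191 CPM in Elane-high precursors.

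**Figure D3:**
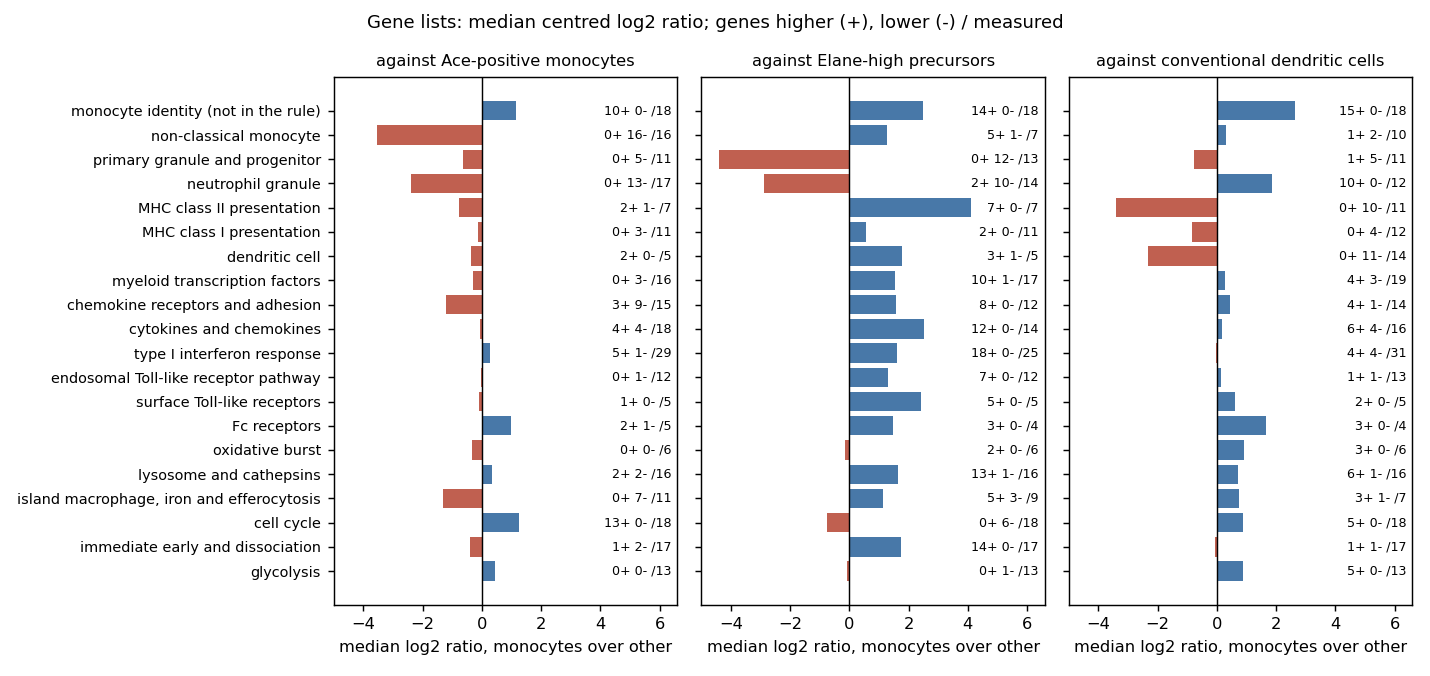
Median centred log2 ratio of 20 gene lists, classical monocytes over Ace-positive monocytes (left), Elane-high precursors (middle) and conventional dendritic cells (right). Numbers give genes called higher (+), lower (-) and measured; the non-classical list falls to -3.53 on the left, the primary granule list to -4.39 in the middle and the MHC class II list to -3.39 on the right.

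Against conventional dendritic cells, the classical monocytes were poor in antigen presentation genes and rich in identity, Fc receptor and oxidase genes. Of 5909 genes measured, 12.5% were called, and 371 (6.28%) were higher and 366 (6.19%) lower. MHC class II genes were lower in 10 of 11 and higher in 0 (median -3.39), with H2-Aa at 364 CPM in monocytes and 6692 CPM in dendritic cells (-4.24). H2-Aa and Cd74 are part of the rule for dendritic cells, so their difference was fixed. Both are counted in that list and its median. The dendritic cell list, which includes Flt3 of the dendritic cell rule, was lower in 11 of 14 genes (median -2.33). Xcr1, the receptor of cross-presenting dendritic cells, had 0 UMIs in monocytes, against 69.0 CPM, which puts it at least 272-fold lower.

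The identity list was higher in 15 of 18 genes and lower in 0 (median 2.65). Chil3 was at 1554 CPM in monocytes and 11.8 CPM in dendritic cells (6.09), F13a1 at 819 and 9.33 CPM (5.35) and Mgst1, a microsomal glutathione transferase, at 407 and 6.84 CPM (4.55). F10, the gene of coagulation factor X, was at 227 CPM in monocytes and had 0 UMIs in dendritic cells, at least 122-fold higher. Cebpb, a factor that sustains Ly6C-low monocytes and macrophage genes in mice, was at 1546 and 99.5 CPM (3.75). Flt3, used in the dendritic cell rule, was at 11.6 CPM in monocytes and 175 CPM in dendritic cells.

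Oxidative burst genes were higher in 3 of 6 and lower in 0 (median 0.91), with Cybb, the catalytic subunit of the phagocyte NADPH oxidase, at 1419 CPM in monocytes and 353 CPM in dendritic cells (1.90). Neutrophil granule genes were higher in 10 of 12 (median 1.86), with Lcn2, the iron-siderophore binder lipocalin-2, at 242 and 25.5 CPM and Mmp8 at 123 and 0.622 CPM. For S100a8, at 1529 CPM in monocytes and 288 CPM in dendritic cells, erythroid cells held 356 CPM. Glycolysis genes were higher in 5 of 13 and lower in 0 (median 0.89), and cell cycle genes in 5 of 18 and lower in 0 (median 0.86). The cell cycle median was -0.23 within the 1 stretch compared. Ccl4 was at 307 CPM in monocytes and 2359 CPM in dendritic cells (-2.98), and the type I interferon list had 4 of 31 genes higher and 4 lower. Ccr7, which guides dendritic cells to lymph nodes, was at 1.52 and 202 CPM (-4.28) in the pooled cells, but the log2 ratio was -0.27 in the 1 stretch compared. Dnase1l3, at 0.424 and 235 CPM (-4.63) in the pooled cells, had a log2 ratio of -0.0027 in that stretch. It was no longer called without any 1 of stretches 2, 3, 4, 7 and 8 (pooled ratio -4.80 to -4.34).

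RNA-sensing receptors were detected. Tlr7, the endosomal receptor of single-stranded RNA, was at 31.1, 26.4, 44.8, 43.6 and 40.6 CPM in stretches 1, 2, 3, 4 and 6, and at 37.0 CPM in all monocytes (33.6 to 40.7). Tlr8, its mouse paralogue, was at 18.0, 8.62, 12.6, 14.5 and 9.54 CPM, and at 13.6 CPM in all (11.5 to 15.8). Tlr13, the mouse receptor of bacterial ribosomal RNA, was at 25.5, 42.1, 45.2, 41.3 and 39.8 CPM. Tlr7 was lowest in stretches 1 and 2, and no order of stretches is shared by the 3 genes. At 2000 UMIs a cell Tlr7 was found in 7.86%, Tlr8 in 3.12% and Tlr13 in 8.11% of monocytes. Each was found in 0 of the 2000 erythroid cells thinned, which were drawn at random from 3959. Tlr9, the DNA receptor, had 13 UMIs in all monocytes and Tlr3, the double-stranded RNA receptor, had 12.

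Tlr7 was lower in classical than in Ace-positive monocytes, at 37.0 and 113 CPM (-1.45), the latter from 50 UMIs. Its log2 ratio was -0.86 within the 1 stretch compared, short of 2-fold. Tlr7 was the 1 gene of 12 measured in the endosomal list that was called there, with a list median of -0.03. Over all measured genes 15.1% were called in that comparison. Tlr8 was at 13.6 CPM in classical and 11.3 CPM in Ace-positive monocytes, where it rests on 5 UMIs. Against Elane-high precursors 7 of 12 endosomal genes were higher (median 1.30), among them Tlr7 at 37.0 and 1.94 CPM and Unc93b1, the chaperone that brings these receptors to the endosome, at 320.25 and 83.5 CPM (1.58). Against dendritic cells, Tlr13 was higher at 37.5 and 4.35 CPM (1.65) and Tlr3 lower at 1.02 and 24.9 CPM (-1.74), and the other 11 of 13 were not called. The adaptor gene Myd88 was at 71.9 CPM in classical and 54.1 CPM in Ace-positive monocytes, and Irf5, a transcription factor downstream of it, at 158 and 156 CPM.

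Tlr2 and Fc receptors were also measured. Tlr2, the lipoprotein receptor, was at 178, 183, 245, 249 and 321 CPM in stretches 1, 2, 3, 4 and 6, and at 222 CPM in all monocytes against 9.35 CPM in Elane-high precursors (3.34) and 47.3 CPM in dendritic cells (1.94). Tlr4, the endotoxin receptor, was at 7.79 CPM. Levels of different receptors were not ranked against each other, since UMIs per gene are not scaled to length. Of the Fc receptors, Fcgr3 was at 243 CPM in classical and 94.7 CPM in Ace-positive monocytes (1.20), and the inhibitory Fcgr2b at 89.2 and 11.3 CPM (2.15), while Fcgr4 went the other way. The Fcgr2b level in Ace-positive monocytes rests on 5 UMIs. The Fcgr3 call fell to 0.93 without stretch 1.

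Monocytes also differed among themselves. Each of 802 monocytes was thinned to 2000 UMIs, and the 563 genes with a mean of at least 0.5 UMIs were ranked by variance over mean, which is 1 for pure counting noise. The median was 1.18 and 67 genes were over 2. The 15 highest were Ighm, S100a9, S100a8, Cd74, Saa3, H2-Eb1, H2-Ab1, H2-Aa, Gm42418, Lyz2, Chil3, Cxcl2, Malat1, Tmsb4x and Ccl4. Ighm, the immunoglobulin mu chain, led with 143, but 1 cell held 48.9% of its UMIs. S100a9 and S100a8 had 74.5 and 58.6, with 46.3% and 37.4% of their thinned UMIs in 10 cells.

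**Figure D4:**
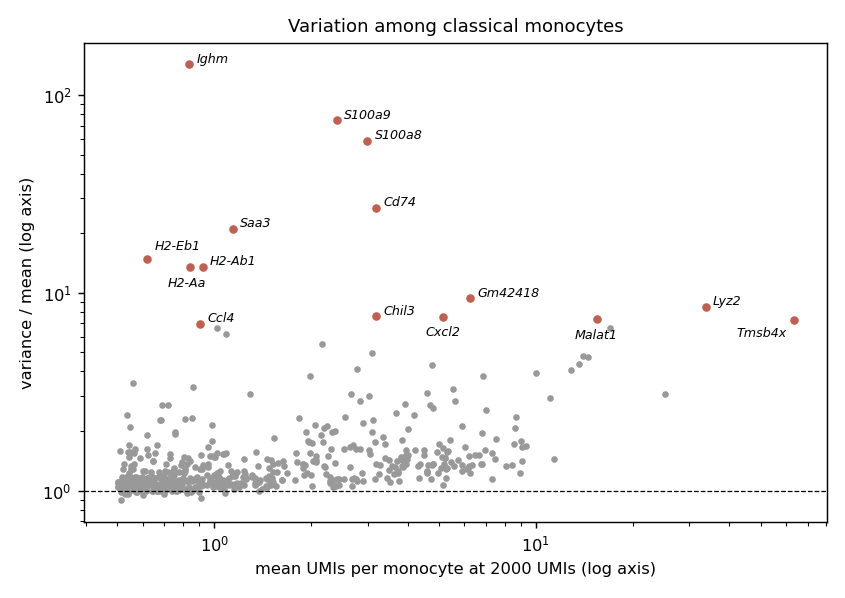
Variance over mean (log axis) against mean UMIs per monocyte (log axis) for 563 genes in 802 classical monocytes thinned to 2000 UMIs, with the 15 highest genes in red and named. The dashed line is pure counting noise at 1; Ighm is at 143, Cd74 at 26.8 and the 3 H2 class II genes between 13.5 and 14.9.

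A group of 4 MHC class II genes was among the 15 highest. Cd74 had a variance over mean of 26.8 and H2-Eb1, H2-Ab1 and H2-Aa of 14.9, 13.5 and 13.5. Cd74 stood at 2273, 1414, 805, 739 and 1058 CPM in stretches 1, 2, 3, 4 and 6, and H2-Aa at 585, 371, 247, 273 and 199 CPM, both highest in stretch 1. Across cells, as a description, the Pearson r of thinned UMIs was 0.83 between Cd74 and H2-Aa (0.79 to 0.89 within stretches) and 0.93 between H2-Aa and H2-Ab1, in counts that share each cell's fixed depth. Between Chil3 and Cd74 it was -0.28 (-0.34 to -0.18), a weak relation in sparse counts.

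A range of 20 or more summed class II UMIs at that depth held 71 of 802 monocytes (8.85%, interval 6.98% to 11.04%), and 24 cells lay within 5 UMIs of this limit. Its share was 17.6%, 11.9%, 5.59%, 4.82% and 6.25% in stretches 1, 2, 3, 4 and 6, highest in stretch 1. Chil3 was at 231 CPM in the class II-rich and 1669 CPM in the other monocytes, Ly6c2 at 1298 and 2511 CPM, and Fn1 at 581 and 1324 CPM. Some genes, chosen after their values were seen, went the other way. Cd209a, a lectin of monocyte-derived dendritic cells in mice, was at 85.0 CPM in class II-rich and 7.92 CPM in the other monocytes (80 and 86 UMIs), Clec10a at 156 and 24.2 CPM, Itgax at 20.2 and 1.93 CPM, and Flt3 at 29.8 and 10.0 CPM. Ccr2 was also higher, at 1273 and 973 CPM, as were Csf1r at 402 and 259 CPM and Cx3cr1 at 260.4 and 117 CPM. Irf8 was lower, at 141 and 260 CPM, and Zbtb46, a factor of conventional dendritic cells, had 2 and 3 UMIs. All these levels pool the stretches, which differ in their share of class II-rich cells. The B cell genes Cd79a and Cd79b were at 14.9 and 37.2 CPM in class II-rich and at 1.38 and 14.6 CPM in the other monocytes, and their part in the result was not tested.

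Cell cycle RNA varied as well. Cells with 10 or more summed cell cycle UMIs were 233 of 802 (29.1%, interval 25.9% to 32.3%), and 68 cells lay within 2 UMIs of this limit. The share was 21.4%, 33.7%, 31.7%, 30.7% and 29.2% in stretches 1, 2, 3, 4 and 6, so it was similar in the last 4. Mki67, a marker of cycling cells, was at 152, 254, 324, 409 and 473 CPM in these stretches. At 2000 UMIs a cell it was found in 25.9% of monocytes and in 38.2% of erythroid cells, which themselves divide. Mki67 and Top2a, both used to set this range, had r = 0.64 across cells (0.49 to 0.78 within stretches).

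Monocytes rich in cell cycle RNA had more of some early myeloid RNAs than the other monocytes, but not of all. Ctsg was at 114 CPM in the cycle-rich and 30.5 CPM in the other monocytes, Prtn3 at 562 and 263 CPM and Irf8 at 346 and 196 CPM. Ms4a3 was also higher, at 16.5 and 9.40 CPM. Mpo was nearly level at 62.9 and 52.3 CPM, as was Cebpe at 12.0 and 13.1 CPM. Ly6c2 was at 2812 and 2190.0 CPM and Fn1 was level, at 1290.4 and 1251 CPM. Mature-side genes were lower, with Csf1r at 174 and 324 CPM, Cx3cr1 at 77.7 and 156 CPM, Nr4a1 at 192 and 352 CPM, Cd74 at 356 and 1889 CPM, Lyz2 at 11268 and 19475 CPM and Tlr7 at 15.1 and 49.3 CPM. The cycle-rich cells held a median of 18832 UMIs, against 13234 in the others. These levels pool the stretches, which differ in their share of cycle-rich cells.

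Stretches differed in a set of genes chosen after their values were seen. Among 2761 genes with at least 50 CPM in the monocytes, 370 (13.4%) differed more than 2-fold and 50 (1.81%) more than 4-fold between the highest and lowest of the 5 stretches, with 10 CPM added. Saa3 was at 1558, 1824, 3.66, 6.51 and 17.5 CPM in the monocytes of stretches 1, 2, 3, 4 and 6, and at 57.3, 90.8, 0.314, 0.853 and 1.12 CPM in the other cells of those stretches. Ifitm1, an interferon-inducible membrane protein, was at 536, 524, 15.1, 28.3 and 35.0 CPM, against 234, 390.0, 64.5, 69.6 and 78.0 CPM in the other cells, and Lrg1, a secreted acute-phase glycoprotein, at 179, 197, 4.88, 6.51 and 8.75 CPM. Lrg1 was at 268.5, 90.7, 163.5, 203.5 and 73.7 CPM in the other cells, so there it was lower in stretch 2 than in stretches 3 and 4. How many genes part these stretches without overlap was not counted. In the monocytes Saa3, Ifitm1 and Lrg1 were higher in stretches 1 and 2 than in stretches 3, 4 and 6. Wfdc21 and Nme2 were so too, so this was not particular to those genes. Ifi27l2a ran the other way, at 739, 383, 2144, 1458 and 1118 CPM, as did Isg15, at 52.3, 29.4, 96.0, 101 and 126 CPM, a gene found at 2000 UMIs in 13.7% of monocytes and 52.9% of erythroid cells.

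Stretch 6, the shallow one, had the lowest level of Klf2 and Fos, a pair of genes chosen after their values were seen. Klf2, which maintains quiescence in circulating leukocytes, was at 2155, 2385, 2424, 2739 and 363 CPM in stretches 1, 2, 3, 4 and 6, and Fos at 3559, 2952, 4255, 5396 and 852 CPM. In the other cells of the same stretches Klf2 was at 2485, 1599, 1417, 2038 and 197 CPM and Fos at 1153, 997, 682, 1216 and 210 CPM, so both were lowest in stretch 6 there too. In the monocytes Ccl4 and Il1b were highest in stretch 6, at 351, 178, 137, 98.7 and 887 CPM and at 201, 237, 72.8, 96.0 and 490.0 CPM. Across the 802 thinned monocytes Fos and Jun had r = 0.42, but within stretches it was 0.09 to 0.21. Whether tissue, genotype, animal, handling or depth goes with these differences cannot be told apart here.

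**Figure D5:**
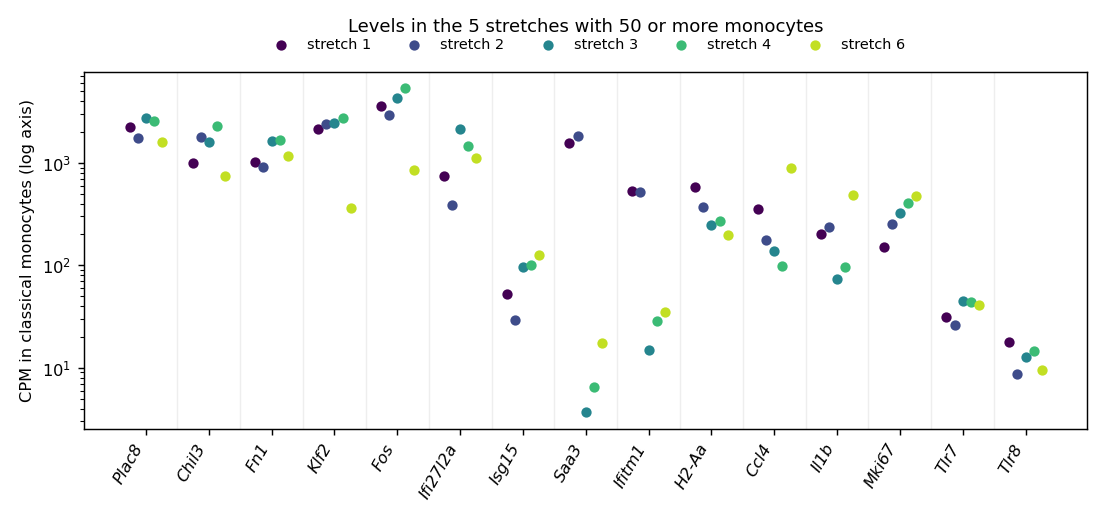
Level (CPM, log axis) of 15 genes in the classical monocytes of each of the 5 stretches with at least 50 of them, 1 point a stretch. Saa3 and Ifitm1 are high in stretches 1 and 2 (1558 and 1824 CPM for Saa3), Klf2 and Fos are lowest in stretch 6 (363 and 852 CPM), and Tlr7 stays between 26.4 and 44.8 CPM.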

How the data were processed

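Cells of erythroblastic islands were sequenced on the 10x Genomics v3.1 platform. The deposited file is 1 matrix of unnormalised UMI counts made by the authors, 19669 genes by 24942 cells. Cell Ranger 5.0.0, Seurat 3.1.5 and mm10 appear in the submitters' processing notes, without their roles. Filters on cells and the handling of strand and overlapping genes: not given in the sources used here.

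No cell was filtered and no doublet caller was run, so doublets may remain; cells with other-lineage UMIs were left out as an alternative. Nothing ties a cell to a library, so no test between groups was made. Class sums of UMIs were turned into CPM in Python 3.11.15, numpy 2.4.6, scipy 1.17.1 and pandas 2.3.3. Levels have exact 95% Poisson intervals and shares exact Clopper-Pearson intervals. The floor of a class at 0 is 3 UMIs summed over that class. Thinning to 2000 UMIs a cell, drawn without replacement, used a fixed seed and left out 2 monocytes, 53 of 57 Ace-positive monocytes remaining. Of 3959 erythroid cells deep enough, 2000 drawn at random were thinned. Biopython 1.88 aligned the Ly6c transcripts.

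Named genes were, per comparison, the 10 highest and 10 lowest called genes, up to 4 per list by size, all Toll-like and Fc receptor list genes, the rule genes and Plac8, and the 15 most variable genes among monocytes. Other genes named were chosen after their values were seen. A total of 29 gene lists was used, and 1 listed gene was not a row used here. The members and lists were chosen with earlier results of these data known. On simulated counts all 100 genes changed 4-fold were called in each comparison, but of 100 genes changed 2-fold 26% were called against Ace-positive monocytes, 3% against Elane-high precursors and 20% against dendritic cells.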

Additional observations from a re-analysis of the deposited data

How the results depend on the processing

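Leaving out cells with 2 or more UMIs of other-lineage markers kept 531 of 804 monocytes. Against Ace-positive monocytes 707 genes were higher with 1 CPM added and 771 with cells thinned to 2000 UMIs, against 410 as reported, and against Elane-high precursors 303 were lower without centring, against 462. A pair of log2 ratios changed sign: Hmox1 against Ace-positive monocytes, which ran from -1.36 to 0.088 as stretches were left out and was positive without stretch 8, and S100a8 against Ace-positive monocytes, at 0.12 without cells holding neutrophil RNA, an alternative chosen after seeing the data. Leaving out each stretch in turn kept 611 to 802 monocytes and 13 to 15 of the 15 most variable genes. It gave 372 to 559 genes higher and 484 to 567 lower than in Ace-positive monocytes, 797 to 843 higher and 436 to 477 lower than in Elane-high precursors, and 358 to 419 higher and 339 to 446 lower than in dendritic cells. The causes were not tested. Over 336 values of named genes and all alternatives, 6320 recomputed values kept their direction and side of the 2-fold rule, 97 gained a call, 82 lost one and 51 values that were not called moved. No paired analysis was possible because the cells carry no library or replicate number. The comparisons with Ace-positive monocytes and dendritic cells rest on 57 and 107 cells and 1 stretch each.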

Other observations

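A group of interferon-response genes was higher in erythroid cells than in classical monocytes. Isg15, a ubiquitin-like modifier, was at 82.9 CPM in monocytes and 1143 CPM in erythroid cells with 60% or more globin, and at 2000 UMIs a cell it was found in 13.7% and 52.9% of them. Rsad2, the antiviral enzyme viperin, was at 23.8 and 722 CPM and found in 5.61% and 56.2%. Other genes of the same list lay the other way. Ifi203 was at 204 CPM in monocytes and 1.31 CPM in erythroid cells, Slfn5 at 140 and 0.346 CPM and Ifitm3 at 3243 and 61.5 CPM.

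Stretch 6 held platelet RNA in its monocytes. Pf4, the platelet chemokine CXCL4, was at 32.4, 4.06, 15.9, 11.9 and 336 CPM in the monocytes of stretches 1, 2, 3, 4 and 6, and at 67.6, 74.4, 58.3, 36.1 and 1449 CPM in the other cells of those stretches. Tnfsf9, which encodes the 4-1BB ligand, was at 55.6, 32.5, 36.6, 24.1 and 261 CPM in the monocytes, against 4.90, 2.74, 1.57, 1.17 and 7.06 CPM in the other cells. Pf4 was thus lower in monocytes than in the other cells of every one of these stretches, and Tnfsf9 higher.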
